A study of Mus musculus with 8 samples.

Results

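The nuclear genes for the subunits of the mitochondrial respiratory chain and ATP synthase were compared between the germinal zones and the cortical plate of the embryonic mouse neocortex. Members were all gene probes whose RefSeq accession maps to a symbol beginning with Nduf, Uqcr or Atp5, to Sdha, Sdhb, Sdhc or Sdhd, or to a Cox symbol of the families Cox4 to Cox8. The rule uses names and no measured value. It found 93 genes on 124 probes, of 32524 gene entries on 39429 gene probes. Of these genes 84 encode subunits, namely 36 of complex I, 4 of complex II, 8 of complex III, 19 of complex IV and 17 of complex V. The other 9 encode assembly or associated factors (Ndufaf1 to Ndufaf8 and Cox7a2l) and are counted apart. Ndufa4 and its paralog Ndufa4l2 are counted with complex IV, where Ndufa4 is now placed.

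RNA came from the neocortex of ICR mice at embryonic day 16, and the labels name no transgene or treatment for either group. The first group was 4 samples of hand-dissected ventricular and subventricular zone (V/SVZ), the germinal layers in which progenitors divide. The second was 4 samples of cortical plate (CP), where newly made neurons settle. Each sample was hybridised to its own 1-colour Agilent array from 100 ng of total RNA. Whether the samples came from separate embryos or litters is not stated, so p-values cover the spread among these arrays, part or all of which may be technical.

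Complexes I to IV pass electrons from NADH and succinate to oxygen and, apart from complex II, pump protons out of the mitochondrial matrix. Complex V, the ATP synthase, lets the protons flow back and makes ATP. Most subunits are encoded in the nucleus and imported, and are joined in complexes I, III, IV and V by subunits that the mitochondrial DNA encodes. Neurons are known for a high demand on this pathway, while dividing neural progenitors are known for strong glycolysis. Several subunits exist as paralogs that are used in different tissues.

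The arrays were alike in the share of probes detected but differed between the tissues in intensity. The share of gene probes well above background ran from 58.6% to 62.9% per array, with no saturated gene spot. Arrays of one tissue correlated at 0.992 to 0.995 for V/SVZ and 0.996 to 0.997 for CP, against 0.88 to 0.897 between tissues. The tissues matched their labels: the summed signal of 6 progenitor markers was 195.5 to 206.3 on V/SVZ arrays against 10.4 to 11.6 on CP arrays, and that of 6 CP neuron markers was 27.7 to 30.8 against 201.2 to 210.2. Signals are given as relative signal, the processed signal in multiples of the 75th percentile of its array. Relative signals of different probes do not rank their genes, since each probe binds with its own strength. All V/SVZ arrays lay on 1 slide and scan and all CP arrays on another, so slide and tissue cannot be told apart. The 75th percentile was 2416 to 2566 on V/SVZ arrays against 2113 to 2264 on CP arrays. Outlier gene spots numbered 187 to 258 on V/SVZ arrays against 142 to 167 on CP arrays. Before scaling, spike-in control RNAs were higher on V/SVZ arrays by 0.16 to 0.37 on the log2 scale. After scaling, spike-in control RNAs differed between the tissues by -0.05 to 0.16 on the log2 scale, V/SVZ minus CP.

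Of the 84 subunit genes, 80 were tested, and the probe used for each was well above background on all 8 arrays. The 4 left out were Cox6a2, Cox7b2, Cox8b and Cox8c, paralogs best known from muscle or testis, whose probes did not pass the filter on dim signals. In limma fits over 19239 genes, 31 subunits were higher in V/SVZ, 22 were higher in CP and 27 were not called at an adjusted p under 0.05. That is 66.2% of subunits called, beside 79.5% of all genes. In V/SVZ the subunits' share was 38.8%, beside 35% of all genes, and in CP it was 27.5%, beside 44.5%. Every subunit has a symbol, and of the 13837 tested genes with a symbol 38.6% were higher in V/SVZ and 43.5% in CP, with 82.1% called. The 4 arrays of each tissue did not overlap for 51 of the 80 subunits, beside 75.2% of all genes. Counted by probe, 42 subunit probes were higher in V/SVZ and 26 in CP, and the other tested subunit probes were not called. Of all tested probes 79.7% were called in either direction. Calls in each direction were not counted over all probes, so the split of subunit probes has no baseline and shows no lean towards V/SVZ.

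The differences were small. With the brightest probe standing for each gene, no subunit was called at 2-fold or more, beside 13.7% of all genes in V/SVZ and 16.5% in CP, and the nearest, Ndufab1, stood at 1.997-fold. Counted by probe, 2 dimmer subunit probes passed 2-fold, at 2.75-fold for Ndufb11 and 2.2-fold for Ndufv3, both towards V/SVZ. Fitted differences, V/SVZ minus CP on the log2 scale, ran from -0.38 to 0.998 with a median of 0.05 and quartiles of -0.12 and 0.24. Over all genes the median was -0.09 and the quartiles were -0.66 and 0.44. Of the subunits 92.5% lay within 0.5 of zero, against 46.9% of all genes. By mean signal, 56 of the 80 subunits lay in the brightest 10% of genes, and of the other 1868 genes there 73.2% lay within 0.5 and 8.3% were called at 2-fold or more. In this bright set 66.1% of the 56 subunits were called, beside 69.2% of the other genes. Beyond 0.16 in size, the largest spike-in difference, 26 subunits were called higher in V/SVZ and 11 in CP. Calls beyond 0.16 were not counted over all genes. Within 0.15 of zero lay 50% of the subunits, against 38.1% of the other genes in the brightest 10% and 17.3% of all genes.

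**Figure D1:**
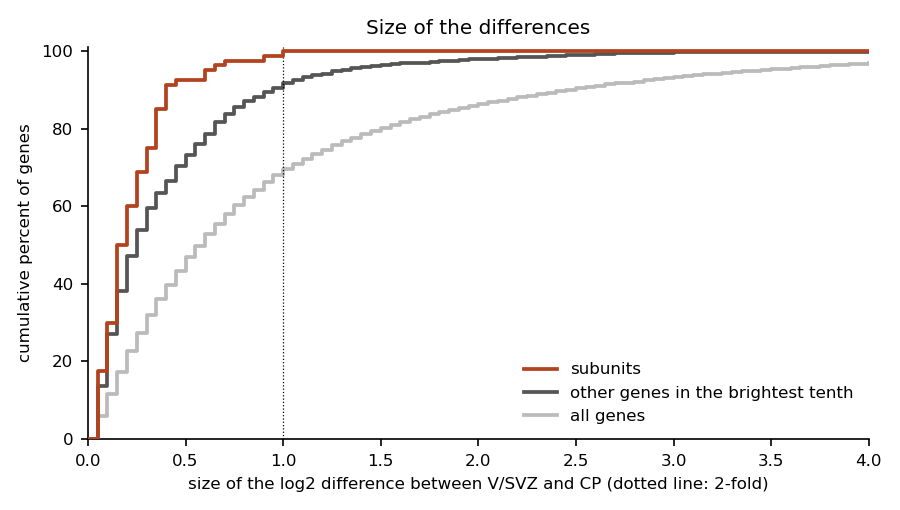
Cumulative percent of genes (vertical axis) whose log2 difference between V/SVZ and CP is no larger than the value on the horizontal axis, for the 80 tested subunits, the other 1868 genes in the brightest 10% and all 19239 genes. The curve of the subunits lies above both others and reaches 100% at the dotted line of 2-fold.

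**Figure D2:**
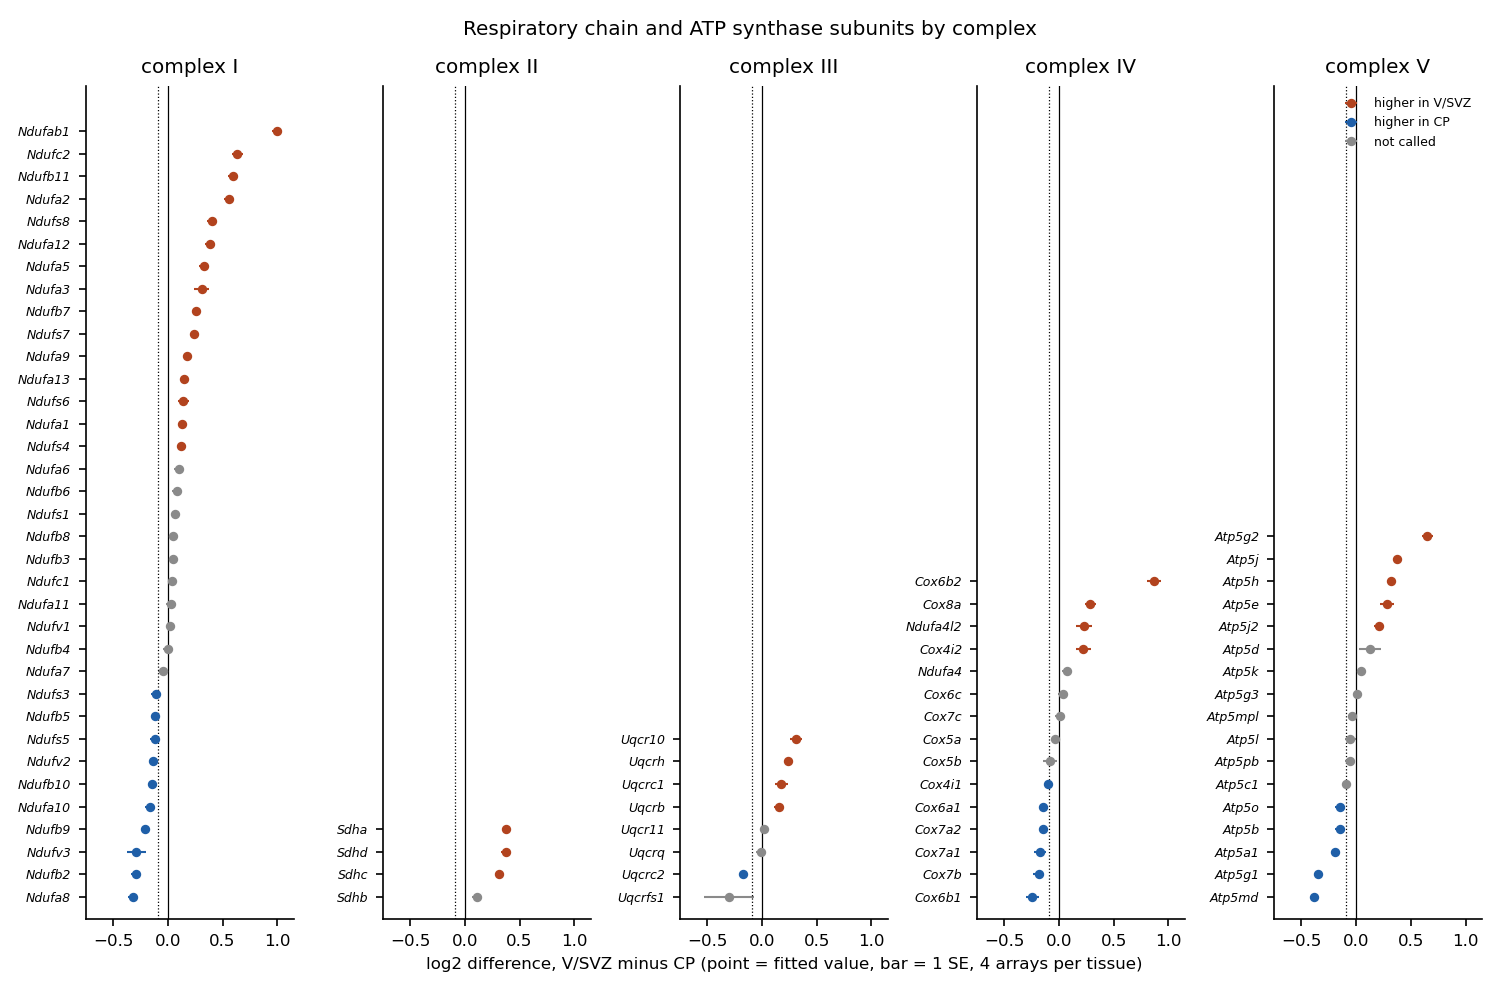
Fitted log2 difference, V/SVZ minus CP, for tested subunits, in a panel per complex; 1 of the 80 is not shown. Points are fitted values, bars are 1 SE over 4 arrays per tissue, colours give the call, and the dotted line is the median of all genes at -0.09. Most points lie between -0.38 and 0.40, with Ndufab1, Cox6b2 and Atp5g2 furthest to the right in complexes I, IV and V.

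The split between the tissues moved with the scaling between arrays. In size, 42 of the 80 differences lay within 0.16, the largest spike-in difference, which was towards V/SVZ. Against 31 towards V/SVZ and 22 towards CP under the 75th percentile, the counts were 30 and 3 when arrays were scaled on their medians, 41 and 16 after quantile normalization, and 23 and 25 when scaled on the spike-in RNAs. Of all 19239 genes, 6730 were called towards V/SVZ and 8570 towards CP under the 75th percentile. These counts were 6899 and 7130 with medians, 7209 and 8025 after quantile normalization, and 5897 and 9001 with spike-in scaling. The median of all genes shifted by 0.09, 0.05 and -0.07 under these alternatives. Called in the same direction under all 4 scalings were 23 subunits towards V/SVZ and 3 towards CP, which were Ndufa8, Atp5g1 and Atp5md. Calls under all 4 scalings were not counted over all genes, so no share stands beside these. By complex, the 23 were 10 of complex I, 3 of complex II, 2 of complex III, 3 of complex IV and 5 of complex V.

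**Figure D3:**
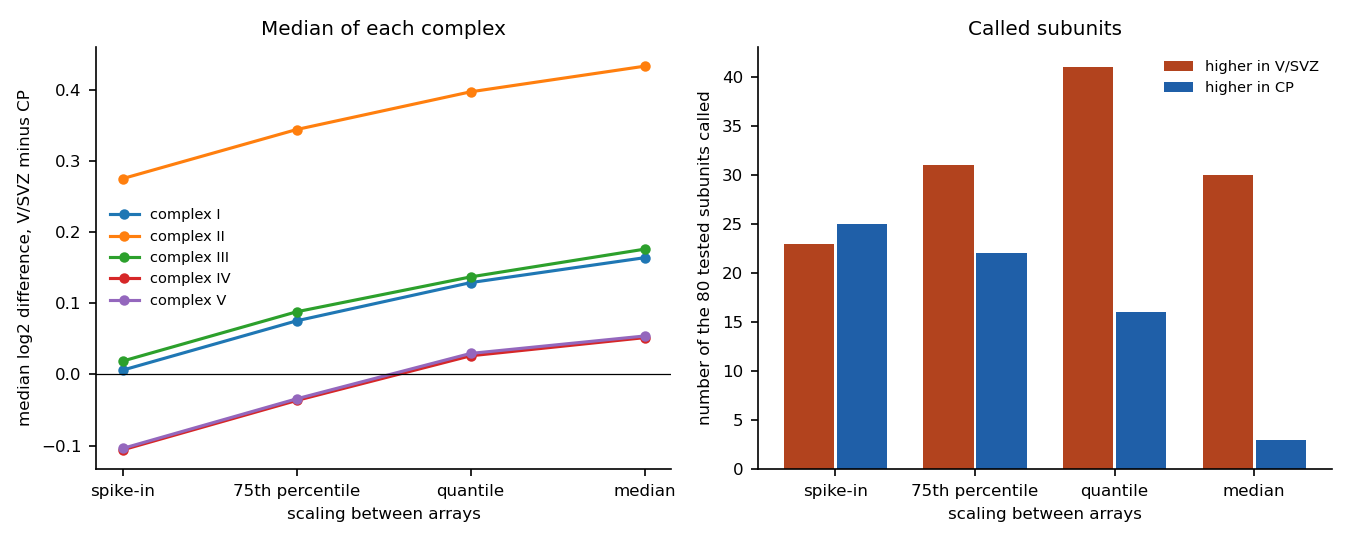
Left, the median log2 difference, V/SVZ minus CP, of each complex (vertical axis) under 4 scalings between arrays (horizontal axis). Right, the number of the 80 tested subunits called in each direction under the same scalings. Complex II stays highest, between 0.28 and 0.43, complexes I and III stay above 0, and complexes IV and V lie at -0.11 to 0.05, with a sign that changes between scalings.

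In complex I, the NADH dehydrogenase, 15 of 36 subunits were higher in V/SVZ, 10 were higher in CP and 11 were not called, and the median difference was 0.08. The subunit with the largest difference was Ndufab1, the mitochondrial acyl carrier protein, which sits in complex I and also serves fatty acid synthesis in the matrix. Its relative signal was 0.633, 0.642, 0.564 and 0.600 on the V/SVZ arrays, against 0.314, 0.306, 0.297 and 0.304 on the CP arrays. The tissues did not overlap, and every V/SVZ array stood far above every CP array (log2 difference 0.998, SE 0.05, limma adjusted p = 3.14e-07).

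The next largest differences in complex I were also in accessory subunits, which surround the catalytic core. Ndufc2, an accessory subunit of the membrane arm, had relative signals of 30.5, 29.9, 27.8 and 30.5 on V/SVZ arrays against 19.9, 19.9, 18.1 and 18.7 on CP arrays, a difference of 0.63 (SE 0.05, limma adjusted p = 6.68e-06). Ndufb11 averaged 37.0 ± 1.9 in V/SVZ and 24.5 ± 0.7 in CP (SD, n = 4 each), and Ndufa2 averaged 28.2 ± 1.4 in V/SVZ and 19.1 ± 0.6 in CP (SD, n = 4 each). The arrays of the tissues did not overlap for any of these genes. A second, dimmer probe of Ndufb11 gave a larger difference of 1.46 in the same direction. With spike-in scaling Ndufa1, Ndufa9, Ndufa13, Ndufs4 and Ndufs6 lost the call, and Ndufs6 lost it with median scaling too. The other 9 accessory subunits called higher in V/SVZ, from Ndufa12 and Ndufa5 down to Ndufa1 and Ndufs4, differed by 0.12 to 0.38. A dimmer probe of Ndufa5 gave 0.11 and was not called. The 8 accessory subunits not called, Ndufa6, Ndufa7, Ndufa11, Ndufb3, Ndufb4, Ndufb6, Ndufb8 and Ndufc1, lay between -0.04 and 0.10.

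Among the core subunits of complex I that the nucleus encodes, 2 were higher in V/SVZ and 2 were higher in CP. Ndufs8 and Ndufs7, which carry iron-sulfur clusters on the path to ubiquinone, were higher in V/SVZ by 0.40 (SE 0.04) and 0.24 (SE 0.04), with no overlap. Ndufs8 had relative signals of 3.90, 3.86, 3.58 and 4.02 on V/SVZ arrays, against 2.96, 2.85, 2.90 and 2.91 on CP arrays. Ndufv2, an iron-sulfur subunit of the part that takes up NADH, was lower in V/SVZ by 0.13 on the log2 scale. That is smaller in size than the largest spike-in difference but further towards CP than any spike-in. Ndufs3 was lower by 0.11 with overlapping arrays, at an adjusted p of 0.0495 in limma. It was not called under median scaling or quantile normalization, and it kept its call in 8 of 20 alternatives. Ndufv1, which binds NADH and the flavin, differed by 0.02 and Ndufs1 by 0.07, with adjusted p-values in limma of 0.493 and 0.113, and neither was called.

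Of the complex I genes called towards CP on their brightest probe, Ndufa8, Ndufb2, Ndufv3 and Ndufb9 had the largest differences, and all are accessory subunits. The probes of Ndufv3 disagree, so it is counted here but described apart. With median scaling only Ndufa8 of the 10 kept the call. Ndufa8 had relative signals of 4.54, 4.73, 4.69 and 5.07 on V/SVZ arrays, against 5.86, 5.83, 5.93 and 6.07 on CP arrays. All CP arrays exceeded all V/SVZ arrays, and the difference of -0.32 (SE 0.04, limma adjusted p = 0.000162) was called under each of the 4 scalings. Ndufb2 and Ndufb9 differed by -0.29 (SE 0.04) and -0.21 (SE 0.03), and neither overlapped between tissues. The other 4 called towards CP, Ndufb5, Ndufs5, Ndufb10 and Ndufa10, differed by -0.16 to -0.12. A dimmer probe of Ndufb5 gave -0.07 and was not called.

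Ndufv3, an accessory subunit made in long and short splice forms, is the member whose probes were called in opposite directions. Its brighter probe read 19.2, 24.5, 19.7 and 21.0 on V/SVZ arrays against 24.0, 28.3, 24.8 and 25.6 on CP arrays, a difference of -0.29 (SE 0.09, limma adjusted p = 0.0158) with overlap. Its dimmer probe differed by 1.13 in the other direction, with 0.603, 0.593, 0.539 and 0.595 in V/SVZ against 0.291, 0.268, 0.253 and 0.2499 in CP and no overlap. No direction is given for this gene, and probe sequences were not used here, so whether the probes read different transcripts was not tested. Among 24 members with several tested probes, 10 had every probe called in 1 direction, 7 had some called, 6 had none called and 1 was Ndufv3.

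Complex II, the succinate dehydrogenase shared with the tricarboxylic acid cycle, has only nuclear subunits, and 3 of its 4 genes were higher in V/SVZ with none higher in CP. Its median difference, 0.34, was the highest of the 5 complexes under each of the 4 scalings. Sdha, the flavoprotein that oxidises succinate, had relative signals of 13.0, 12.7, 12.6 and 12.9 on V/SVZ arrays, against 10.1, 9.69, 9.97 and 9.70 on CP arrays. The lowest V/SVZ array lay above the highest CP array, with a difference of 0.37 (SE 0.03, limma adjusted p = 1.06e-05). Sdhd and Sdhc, the membrane anchors that bind ubiquinone, followed. Sdhd had relative signals of 11.6, 11.8, 11.3 and 12.2 in V/SVZ against 9.39, 9.30, 8.68 and 8.92 in CP, a difference of 0.37 (SE 0.04, limma adjusted p = 5.49e-05). Sdhc had 6.87, 7.17, 6.49 and 7.02 in V/SVZ against 5.74, 5.66, 5.36 and 5.37 in CP, a difference of 0.32 (SE 0.04, limma adjusted p = 0.000242), and a second probe gave 0.31. Neither overlapped between tissues. Sdhb, the iron-sulfur subunit, had relative signals of 34.7, 34.4, 31.2 and 36.02 in V/SVZ against 32.1, 31.6, 31.0 and 31.3 in CP. Those arrays overlapped, and the difference of 0.11 (SE 0.05) was not called (limma adjusted p = 0.0642), although quantile normalization gave 0.18 (limma adjusted p = 0.00703). It was also called higher in V/SVZ with array weights, with an intensity trend, in the authors' deposited table and without V/SVZ array 3.

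The promoters of Sdha and Sdhd are shown because they hold letters of the nuclear respiratory factor NRF1, a transcription factor known for driving respiratory chain genes. Both are the 250 bases before the RefSeq transcription start in build GRCm38.p6, on the minus strand, with matches to its motif (GCGCA, any base, then GCGC) on either strand in capitals. Sdha lies at chr13:74350241-74350490 and holds 3 matches, and Sdhd lies at chr9:50603850-50604099 and holds 1. In the 50 bases after its start, not printed, Sdhd also holds a match, on either strand, to TCAAGGTCA, the letters of the estrogen-related receptor ESRRA.
Sdha: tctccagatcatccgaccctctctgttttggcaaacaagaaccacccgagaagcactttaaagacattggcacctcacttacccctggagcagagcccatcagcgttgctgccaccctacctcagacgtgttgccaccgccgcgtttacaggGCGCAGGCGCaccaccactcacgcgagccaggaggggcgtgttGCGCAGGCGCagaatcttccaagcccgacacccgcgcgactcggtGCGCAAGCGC
Sdhd: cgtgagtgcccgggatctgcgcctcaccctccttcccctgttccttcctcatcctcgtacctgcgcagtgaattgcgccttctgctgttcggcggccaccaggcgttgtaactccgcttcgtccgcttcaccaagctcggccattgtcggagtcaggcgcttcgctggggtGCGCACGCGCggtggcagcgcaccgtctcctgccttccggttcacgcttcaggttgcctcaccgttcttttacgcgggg

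In complex III, the cytochrome bc1 complex, 4 of 8 subunits were higher in V/SVZ, 1 was higher in CP and 3 were not called, with a median difference of 0.09. Uqcr10, a small accessory subunit, had relative signals of 20.3, 20.2, 18.3 and 20.4 on V/SVZ arrays, against 16.3, 14.7, 16.6 and 16.2 on CP arrays. The arrays did not overlap (difference 0.31, SE 0.05, limma adjusted p = 0.000937), and all 3 of its probes were called in this direction. Uqcrh, the hinge protein that helps cytochrome c dock, differed by 0.24 (SE 0.04) with no overlap, and Uqcrb by 0.16 (SE 0.04). Dimmer probes of Uqcrb gave 0.20, called higher in V/SVZ, and -0.03, not called. Uqcr11 and Uqcrq were not called at 0.02 and -0.01, although a dimmer probe of Uqcrq gave -0.54. The matrix-facing core proteins went opposite ways: Uqcrc1 was higher in V/SVZ by 0.18 (SE 0.06, limma adjusted p = 0.0278), while Uqcrc2 was higher in CP, with 15.8, 15.7, 15.3 and 16.2 in V/SVZ against 17.9, 17.4, 17.9 and 17.7 in CP (difference -0.17, SE 0.03, limma adjusted p = 0.0012). The calls of Uqcrc1 and Uqcrb were lost with spike-in scaling (limma adjusted p = 0.0683 and 0.139) and that of Uqcrc2 with median scaling. Uqcrfs1, the Rieske iron-sulfur protein that passes electrons to cytochrome c1, was singled out after its values were seen. It read 6.09, 12.6, 12.02 and 12.3 on V/SVZ arrays, against 13.5, 12.6, 12.4 and 12.5 on CP arrays, so 1 V/SVZ array stood far below the others. Its difference of -0.30 was not called (limma adjusted p = 0.255), and without that array it was -0.05 (limma adjusted p = 0.361).

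In complex IV, cytochrome c oxidase, 4 of 15 tested subunits were higher in V/SVZ, 6 were higher in CP and 5 were not called, with a median difference of -0.04. All 6 higher in CP lost the call when arrays were scaled on their medians. Of the 4 higher in V/SVZ, 3 are the less widespread paralogs of a subunit: Cox6b2, Cox4i2 and Ndufa4l2. Cox6b2, best known from testis, had relative signals of 0.182, 0.174, 0.156 and 0.159 on V/SVZ arrays, against 0.0936, 0.0916, 0.0959 and 0.0860 on CP arrays. The tissues stood clearly apart (difference 0.87, SE 0.06, limma adjusted p = 3.46e-06). Its widespread paralog Cox6b1, which sits where the monomers of the dimeric enzyme meet, had 4.68, 5.30, 5.01 and 5.66 in V/SVZ against 6.06, 5.98, 6.30 and 6.06 in CP, the other direction and also without overlap (difference -0.24, SE 0.06, limma adjusted p = 0.00581).

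Cox4i2, the paralog known from lung and from low oxygen, had relative signals of 0.141, 0.137, 0.1496 and 0.139 in V/SVZ against 0.117, 0.136, 0.122 and 0.111 in CP. The highest CP array came just short of the lowest V/SVZ array (difference 0.22, SE 0.07, limma adjusted p = 0.0155). With spike-in scaling the difference was 0.15 and the call was lost (limma adjusted p = 0.149). Its widespread paralog Cox4i1 was higher in CP by a small margin, -0.10 (SE 0.03, limma adjusted p = 0.0282). Ndufa4l2, known as a target of the hypoxia-inducible factor, was higher in V/SVZ by 0.23 (SE 0.07) with overlapping arrays, while Ndufa4 differed by 0.07 and was not called. Cox7a1, the muscle and heart form, and Cox7a2, the widespread form, were lower in V/SVZ by 0.18 and 0.15 on the log2 scale. Cox8a was higher in V/SVZ by 0.29 (SE 0.05) on its brighter probe and by 0.13 on its dimmer probe. Cox6a1 differed by -0.15 and Cox7b by -0.18, both higher in CP. Cox5a, Cox5b, Cox6c and Cox7c were not called, at -0.08 to 0.04.

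In complex V, the ATP synthase, 5 of 17 subunits were higher in V/SVZ, 5 were higher in CP and 7 were not called, with a median difference of -0.03. The catalytic head, F1, did not move as a block. Its alpha and beta subunits, Atp5a1 and Atp5b, were higher in CP by small margins (differences -0.19, SE 0.04, and -0.15, SE 0.04). Its epsilon subunit Atp5e was higher in V/SVZ (0.28, SE 0.06), and gamma, Atp5c1, and delta, Atp5d, were not called at differences of -0.09 and 0.13. Of the stalk and membrane subunits, Atp5j (coupling factor 6) and Atp5h (subunit d) were higher in V/SVZ, by 0.37 (SE 0.04) and 0.32 (SE 0.03), and neither overlapped. With median scaling the calls of Atp5a1, Atp5b and Atp5o were lost. Atp5j2 was higher in V/SVZ by 0.21 and Atp5o higher in CP (difference -0.15). On their brightest probes Atp5k, Atp5l, Atp5mpl and Atp5pb were not called, at -0.06 to 0.05. A dimmer probe of Atp5pb gave -0.20 and was called higher in CP. Atp5l had 5 tested probes, of which 3 were called higher in CP and 2 were not called, with differences of -0.43 to -0.05. Small subunits of this kind are known for processed pseudogenes, and whether these probes also read other copies was not tested. Atp5md, a small membrane subunit also known as DAPIT, had the largest difference towards CP of all 80 subunits under the 75th percentile, with relative signals of 21.1, 20.9, 20.1 and 21.4 in V/SVZ against 27.5, 27.2, 27.3 and 26.8 in CP. The gap between tissues was wider than the range within either (difference -0.38, SE 0.03, limma adjusted p = 1.17e-05).

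Atp5g1, Atp5g2 and Atp5g3 encode the same mature subunit c, the protein of the rotating membrane ring, and differ in the leader peptide that is cut off on import. Atp5g2 had relative signals of 82.1, 80.3, 74.3 and 85.9 on V/SVZ arrays, against 53.1, 50.5, 50.8 and 50.8 on CP arrays (difference 0.65, SE 0.05, limma adjusted p = 5.41e-06). Atp5g1 had 28.6, 29.1, 27.8 and 29.8 in V/SVZ against 37.1, 36.7, 36.3 and 36.7 in CP (difference -0.35, SE 0.03, limma adjusted p = 2.19e-05). Atp5g3 had 46.6, 47.4, 45.2 and 50.6 in V/SVZ against 48.4, 46.3, 46.1 and 47.4 in CP (difference 0.01, SE 0.04, limma adjusted p = 0.831). Atp5g2 was thus higher in V/SVZ and Atp5g1 higher in CP, both without overlap, and Atp5g3 overlapped. A second probe of Atp5g2 gave 0.61.

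The upstream sequences of these genes are shown because they give 1 protein from different promoters. They are the 250 bases before the RefSeq start in build GRCm38.p6, on the minus strand: Atp5g2 at chr15:102671048-102671297, Atp5g1 at chr11:96075632-96075881 and Atp5g3 at chr2:73911327-73911576. Capitals mark the NRF1 motif in Atp5g2 and TCAAGGTCA, on the opposite strand, in Atp5g3, the letters of the estrogen-related receptor ESRRA. Atp5g3 also holds 1 match to the NRF1 motif in the 50 bases after its start, which are not printed. No searched motif was found before or after the start of Atp5g1.
Atp5g2: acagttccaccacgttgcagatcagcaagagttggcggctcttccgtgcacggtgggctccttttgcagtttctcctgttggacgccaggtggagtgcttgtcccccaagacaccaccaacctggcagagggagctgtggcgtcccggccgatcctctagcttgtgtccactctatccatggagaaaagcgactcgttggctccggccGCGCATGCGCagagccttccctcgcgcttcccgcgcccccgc
Atp5g1: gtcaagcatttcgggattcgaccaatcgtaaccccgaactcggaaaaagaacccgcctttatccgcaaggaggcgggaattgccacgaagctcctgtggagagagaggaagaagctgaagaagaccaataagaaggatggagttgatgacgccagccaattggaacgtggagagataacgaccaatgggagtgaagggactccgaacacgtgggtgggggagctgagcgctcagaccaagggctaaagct
Atp5g3: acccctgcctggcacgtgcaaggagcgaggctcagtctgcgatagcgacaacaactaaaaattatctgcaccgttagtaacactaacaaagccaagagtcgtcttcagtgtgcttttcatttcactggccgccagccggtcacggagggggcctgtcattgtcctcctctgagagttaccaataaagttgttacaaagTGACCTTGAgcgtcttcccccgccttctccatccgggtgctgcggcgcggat

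**Figure D4:**
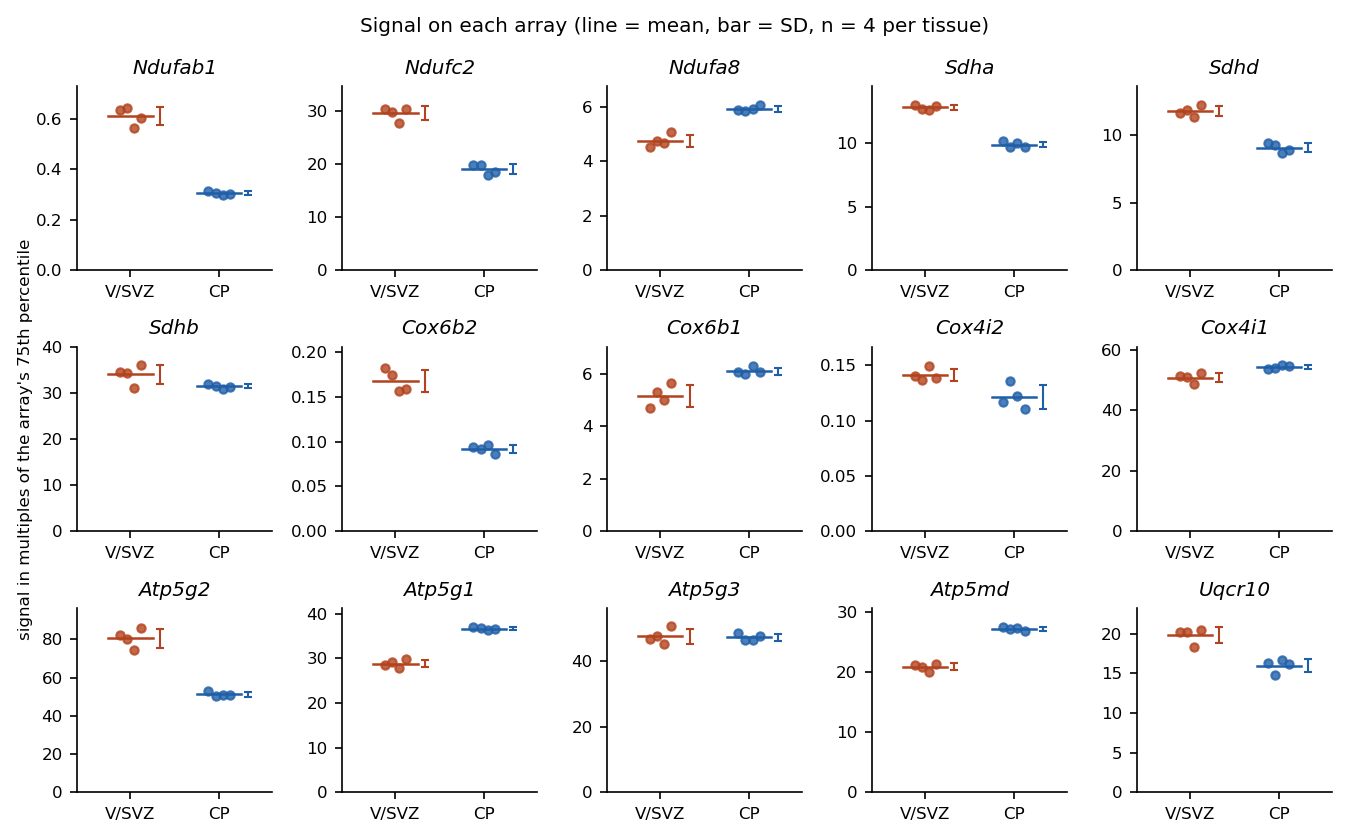
Relative signal (vertical axes, in multiples of the 75th percentile of the array, starting at 0) on each V/SVZ array and each CP array for 15 subunits. Points are arrays, lines are means and bars are SD with n = 4 per tissue. Atp5g2 and Cox6b2 lie higher in V/SVZ, their paralogs Atp5g1 and Cox6b1 lie higher in CP, and Sdhb and Atp5g3 overlap.

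The ratio of 2 paralogs on the same array does not depend on a scaling by 1 factor per array, although quantile normalization can alter it, and 7 such ratios were computed. They were added after the values were seen and are given with no test. Where the paralogs themselves were called in opposite directions, the direction of their ratio follows from those calls. The ratio of Atp5g2 to Atp5g1 was 1.999-fold higher in V/SVZ than in CP, with log2 ratios of 1.42 to 1.53 on V/SVZ arrays against 0.46 to 0.52 on CP arrays. The ratio of Cox6b2 to Cox6b1 was 2.16-fold higher in V/SVZ, with log2 ratios of -5.16 to -4.69 on V/SVZ arrays against -6.14 to -6.02 on CP arrays. Atp5g2 to Atp5g3 changed by 0.64, Atp5g1 to Atp5g3 by -0.36 and Cox4i2 to Cox4i1 by 0.32 on the log2 scale, V/SVZ minus CP, each without overlap. The ratio of Ndufa4l2 to Ndufa4 changed by 0.16 and that of Cox7a1 to Cox7a2 by -0.03, and both overlapped. These ratios show unequal change and not which paralog changed.

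Of the 9 assembly and associated factors, 1 was higher in V/SVZ, 4 were higher in CP and 4 were not called, with a median difference of -0.11. These are 11.1% in V/SVZ, beside 35% of all genes, and 44.4% in CP, beside 44.5%. Ndufaf4, which acts early in building complex I, had relative signals of 1.73, 1.73, 1.58 and 1.70 in V/SVZ against 2.67, 2.52, 2.43 and 2.61 in CP, without overlap (difference -0.60, SE 0.05, limma adjusted p = 6.05e-06). Its second probe gave -0.16, also called. Ndufaf5 differed by -0.40 with overlapping arrays (SE 0.15, limma adjusted p = 0.0367), and its call was lost without any 1 of 7 of the 8 arrays. Its second probe was not well above background on any V/SVZ array and was at least 2.25-fold lower there than in CP (limma adjusted p = 0.000185), a bound against the lowest signal well above background on each array. Ndufaf6 and Ndufaf2 were higher in CP too (differences -0.33 and -0.22), and Ndufaf3, Ndufaf7 and Ndufaf8 were not called. Ndufaf1, another early factor of complex I, was higher in V/SVZ by 0.17 (SE 0.04, limma adjusted p = 0.00387). Cox7a2l, which joins complexes III and IV into supercomplexes, differed by 0.06 and was not called on its brightest probe, while its 2 dimmer probes were called higher in V/SVZ. Of 37 tested assembly factors under other symbols, 12 were higher in V/SVZ, 16 higher in CP and 9 not called, with a median of -0.03. That is 32.4% in V/SVZ and 43.2% in CP, near the shares of all genes. Nubpl, which brings iron-sulfur clusters to complex I, was higher in V/SVZ by 1.42 (SE 0.07), and Taco1, a translation activator for a mitochondrially encoded oxidase subunit, by 1.02 (SE 0.07). Fastkd2 and Ttc19, a factor of complex III, were higher in CP (differences -1.01, SE 0.15, and -0.99, SE 0.04), and the probe of Fastkd2 was well above background on 1 of 4 V/SVZ arrays and on 4 of 4 CP arrays. With median scaling 10 of these 37 were called higher in CP.

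Some promoters of the subunits held motif letters, which the choice of members did not use. RefSeq windows from 250 bases before to 50 after the start were at hand for 68 of the 84 subunits, and motifs were searched on both strands. GCGCA, any base, then GCGC, for NRF1, was present for 17 of 68 subunits (25%), beside 5.19% of 27025 genes with a window. AAGATGGC, for YY1, was present for 10 (14.7%), beside 3.19%, and in 8 of the 10 it lay after the start. CCGGAAGT, for the Ets factor GABPA, was present for 5 (7.35%), beside 4.31%, and TCAAGGTCA, for ESRRA, for 2 (2.94%), beside 0.466%. None of the motifs contains another, and the YY1 letters hold an ATG. Among tested subunits with a window, the NRF1 letters were present in 7 of 26 higher in V/SVZ, 4 of 18 higher in CP and 6 of 22 not called. The YY1 letters were present in 7 of 26, 0 of 18 and 3 of 22 in the same order. The genes compared were not matched to the subunits in the base composition of their windows, and its part was not tested. A match describes letters only and shows no binding.

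Ndufa8, at chr2:36049339-36049588 on the minus strand, is shown as a subunit higher in CP that also holds the NRF1 letters, in capitals, in the 250 bases before its start.
Ndufa8: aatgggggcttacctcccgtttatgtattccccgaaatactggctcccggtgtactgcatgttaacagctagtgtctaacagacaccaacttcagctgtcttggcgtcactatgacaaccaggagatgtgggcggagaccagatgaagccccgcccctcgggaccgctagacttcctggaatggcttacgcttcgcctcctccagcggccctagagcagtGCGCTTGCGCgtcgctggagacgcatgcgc

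Among regulators of these genes, the transcripts of the factors behind the motifs went different ways. Nrf1 was higher in V/SVZ by 0.67 (SE 0.05), Gabpa by 0.83 (SE 0.05) and Yy1 by 0.26 (SE 0.03), while Esrra was higher in CP (difference -0.56, SE 0.03). Of 21 tested transcription and biogenesis factors of mitochondria, 12 were higher in V/SVZ, 8 were higher in CP and 1 was not called, with a median of 0.26. That is 57.1% in V/SVZ, beside 35% of all genes, and 38.1% in CP, beside 44.5%. Gabpb2, a partner of Gabpa, and Tfb1m, a methyltransferase of mitochondrial ribosomal RNA, were higher in V/SVZ by 2.24 (SE 0.13) and 1.93 (SE 0.11). Esrrg, an estrogen-related receptor, and Pprc1, a coactivator, were higher in CP, with differences of -3.24 (SE 0.11) and -0.62 (SE 0.09). Each of these calls had an adjusted p under 0.05 in limma.

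Other genes of energy metabolism reached larger differences than the subunits at their extremes. Of 22 electron carriers and exchange proteins, 9 were higher in V/SVZ, 6 were higher in CP and 7 were not called. Their median was 0.02 and their quartiles were -0.14 and 0.78. Called higher in V/SVZ were 40.9% of them, beside 35% of all genes, and higher in CP 27.3%, beside 44.5%. Etfa, which feeds electrons from fatty acid oxidation into the chain, and Slc25a5, an ADP/ATP carrier, were higher in V/SVZ by 1.51 (SE 0.04) and 1.5 (SE 0.04). Ckmt1, the mitochondrial creatine kinase, and Pdss2, of ubiquinone synthesis, were higher in CP (differences -1.38, SE 0.05, and -0.54, SE 0.05). Cycs and Cyc1, the cytochromes c and c1, were not called at -0.08 and 0.04. Of 21 genes of the tricarboxylic acid cycle and pyruvate entry, 7 were higher in V/SVZ, 7 higher in CP and 7 not called, with a median of 0.00271. Their quartiles were -0.24 and 0.18, beside -0.12 and 0.24 for the subunits. Called in each direction were 33.3% of this list. Suclg2, the GTP-forming succinyl-CoA ligase subunit, and Pcx, pyruvate carboxylase, were higher in V/SVZ by 3.49 (SE 0.07) and 1.196 (SE 0.04). Dlat, of pyruvate dehydrogenase, and Mpc1, of the pyruvate carrier, were higher in CP (differences -0.84, SE 0.04, and -0.51, SE 0.04). With median scaling the counts higher in CP were 5 among the transcription and biogenesis factors, 2 among the carriers and 4 in the tricarboxylic acid cycle.

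Glycolysis had 12 of 17 genes higher in V/SVZ, 4 higher in CP and 1 not called, with a median of 0.36. That is 70.6% in V/SVZ, beside 35% of all genes, and 23.5% in CP, beside 44.5%. Aldoc, an aldolase, and Hk2, a hexokinase, were higher in V/SVZ by 7.32 (SE 0.08) and 1.98 (SE 0.07). Pfkp, the platelet form of phosphofructokinase, and Eno2, the neuronal enolase, were higher in CP (differences -3.56, SE 0.15, and -2.62, SE 0.03). The count for V/SVZ was 11 to 13 under the 4 scalings and that for CP was 4 under each. The 13 mitochondrially encoded subunits were not analysed here, so the partners of the nuclear subunits are not described.

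**Figure D5:**
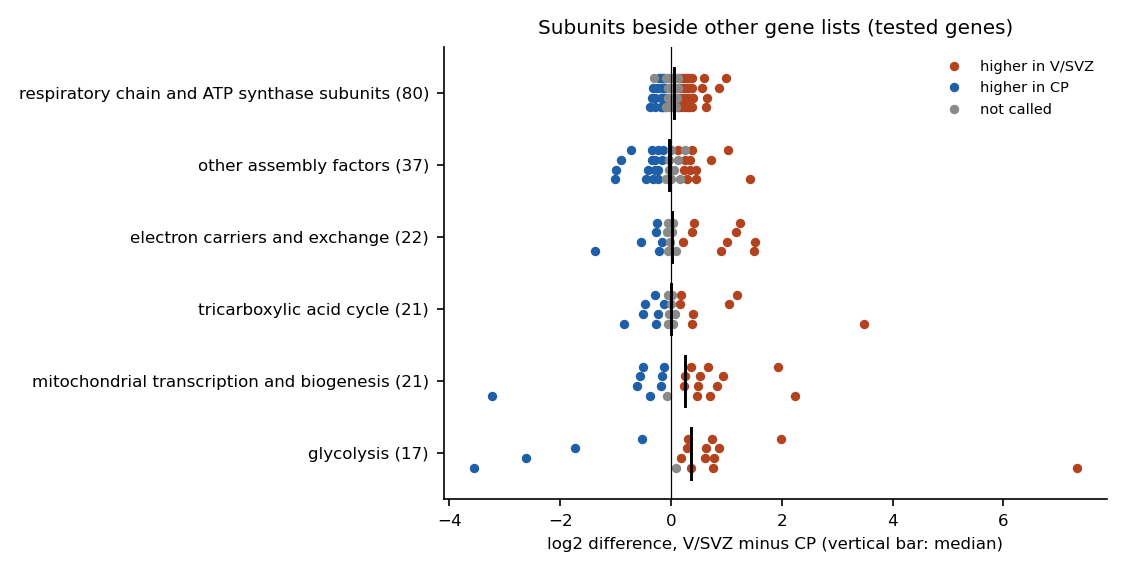
Log2 difference, V/SVZ minus CP (horizontal axis), of the tested genes of 6 lists, with the number tested in brackets. Points are genes coloured by call and vertical bars are medians. The 80 subunits lie between -0.38 and 0.998, while glycolysis runs from -3.56 to 7.32.

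Both tissues are mixtures, and in bulk RNA a different number of cells and a different amount of RNA per cell cannot be told apart. Most erythroid and microglia markers were called higher in V/SVZ, while most endothelial and pericyte markers were not called. Of 10 tested erythroid markers, 8 were higher in V/SVZ, 0 higher in CP and 2 not called, and their summed relative signal was 338.1 to 415 on V/SVZ arrays against 271.3 to 303.1 on CP arrays. The brightest, Hba-a2, an alpha globin, differed by 0.25 (SE 0.04), and Klf1, an erythroid transcription factor, was well above background on all V/SVZ arrays and on 0 CP arrays. Of 13 microglia markers, 10 were higher in V/SVZ and 1, Itgam, in CP, with sums of 18.8 to 24.6 against 14.5 to 16.8, and P2ry12 differed by 2.39 (SE 0.12). Of 14 endothelial and pericyte markers, 4 were higher in V/SVZ, 1, Emcn, was higher in CP and 9 were not called. In this list 35.7% were called, beside 79.5% of all genes, and the median difference was 0.03. The sums were 9.41 to 10.4 on V/SVZ arrays against 7.76 to 8.87 on CP arrays. Cldn5, of endothelial tight junctions, differed by 0.27 (SE 0.07) and Pdgfrb, of pericytes, by 0.93 (SE 0.17). Of the defining genes of the dissected layers, Eomes and Sox2 were higher in V/SVZ and Tbr1 and Bcl11b in CP. The part of these cells in the differences of the subunits was not tested.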

How the data were processed

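Total RNA was amplified and labelled with Cy3 by a low-input kit, as the labels' protocols state. Per the file headers, the intensity of each spot is the processed signal of Agilent Feature Extraction 10.7.1.1, after background subtraction and detrending within the array. A second deposited file holds log2 values of 17163 gene probes, whose scaling and filter are not given in the sources used here. Over its columns 99.8% of rows have a median of 0 (tolerance 1e-05), and column medians ran from -0.03 to 0.02. Each of its columns correlated at about 1 with the array of the other tissue that bears its number and at -0.95 to -0.94 with the array it is named for. It therefore served only as an alternative, after turning it to the direction of the arrays, whose markers match their labels.

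Control spots and outlier spots (142 to 258 per array) were left out, spots of a probe were averaged, and log2 processed signals were set against the 75th percentile of each array (2113 to 2566). The fit took probes above background (the scanner's flag) on every array of 1 tissue or both, with values on 3 or more arrays per tissue; these were 23868 of 39429. A RefSeq table of assembly GRCm38.p6 gave symbols for the accessions of 26761 probes. The array headers name another build, mm9, so no array coordinates are used, and promoter windows are credited to RefSeq. The brightest tested probe stood for a gene, giving 19239 genes. Differences were fitted with limma 3.58.1 (R 4.3.3) over all genes, with Benjamini-Hochberg adjustment and a threshold of 0.05, after a check on simulated data. The files used hold median and not mean spot signals, so normexp (offset 50) was run on medians. Precision is limited by the number of arrays.

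Samples were grouped by their titles. The same-numbered samples deviated together at correlations of 0.338, 0.308, 0.0977 and 0.204, all positive but not all over the 0.1 set for pairing. These values do not settle whether the samples are paired. Since nothing states that the numbers pair them, no block entered the main fit, and a fit with the block is given as an alternative. Members and gene lists were chosen with earlier results of these data known. Named genes were the 4 largest called differences per direction in complex I, the 3 largest in complexes III, IV and V, all of complex II, the 2 largest among the factors, all core, F1 and paralog members, members with probes called both ways, and the 2 largest per direction in each other list. From lists of other cell types they were the brightest gene and the largest called difference, with 4 layer markers. Other members were named after their values were seen. The values of 1 subunit are not reported here, though counts and medians include it. Alternatives covered scaling, background correction, filters, the probe used, the replicate block, array weights, the variance model, the deposited table and each array left out. Leaving out genes whose probes disagree, the set of brightest genes and the paralog ratios were added after seeing the data.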

Additional observations from a re-analysis of the deposited data

Results flagged for a closer look

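In each of the 89 tested members the 4 arrays of a tissue were checked for a lowest or highest array far from the other 3, by Dixon's ratio of that gap to the whole range. Of 178 groups 10 stood out, and chance gives about 1 in 20 groups. Uqcrfs1, the Rieske protein, read 6.09 on V/SVZ array 1 against 12.02 to 12.6 on the others (ratio 0.931). Atp5d, the delta subunit of F1, read 9.43 on V/SVZ array 4 against 12.4 to 12.9 (ratio 0.872). Its difference of 0.13 was not called over all arrays and was 0.24 without that array, where it was called (limma adjusted p = 0.00149). Atp5b, the beta subunit, read 66.4 on V/SVZ array 1 against 73.2 to 73.6 (ratio 0.953) and was still called at -0.11 without it (limma adjusted p = 0.0186).

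Array 3 of V/SVZ was low for Uqcr10, at 18.3 against 20.2 to 20.4 (ratio 0.897), and for Ndufa5, at 24.99 against 27.2 to 27.5 (ratio 0.88). CP array 1 was high for Ndufa4, at 13.1 against 12.3 to 12.4 (ratio 0.921), and for Atp5g2, at 53.1 against 50.5 to 50.8 (ratio 0.907). CP array 2 was low for Ndufa7, at 26.5 against 27.2 to 27.3 (ratio 0.92). Ndufaf6 stood out in both tissues, at 0.784 on V/SVZ array 4 against 0.871 to 0.887 (ratio 0.848) and at 1.01 on CP array 3 against 1.09 to 1.097 (ratio 0.871). Apart from Atp5d, no member named here changed its call without the array in question.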

How the results depend on the processing

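With 1 probe standing for each gene, no subunit was called at 2-fold or more in the values reported, at most 2 were under any alternative, and 2 dimmer probes were when every probe was counted. The number higher in CP was 3 with median scaling, against 22. The median over all subunits was 0.135 with median scaling, 0.101 with quantile normalization and -0.0224 with spike-in scaling. In the same order it was 0.164, 0.129 and 0.00598 for complex I, 0.433, 0.397 and 0.275 for complex II, 0.0517, 0.0262 and -0.106 for complex IV and 0.054, 0.0295 and -0.104 for complex V. Complex III had 0.176 with median and 0.0187 with spike-in scaling. The median of complex II was 0.228 with normexp, that of complex IV was -0.0973 without the filter on dim probes, and that of complex V was 0.0105 without genes whose probes disagree. The cause was not tested. Leaving out each array in turn gave 28 to 34 subunits higher in V/SVZ and 19 to 23 higher in CP. Single calls were less steady than these totals. Over 20 alternatives of each kind Ndufs3 kept its call in 8 and Cox4i1 in 11, and Ndufs6 and Atp5o lost theirs without several single arrays.

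Among genes named by the rule above, signs turned with spike-in scaling for Cox7a2l (-0.00722), Ndufs1 (-0.000468), Ndufv1 (-0.0448), Ndufa4 (-0.000703) and Atp5g3 (-0.0588). None of these was called in the values reported. With normexp the signs of Cox7a2l (-0.0844), Ndufv1 (-0.0463) and Atp5g3 (-0.0349) turned. That of Atp5g3 also turned without V/SVZ replicate 4, in a range of -0.0213 to 0.0338 over the arrays left out. Of other members, normexp turned Atp5o, called higher in CP in the values reported, to 0.127, not called. It turned Atp5l to 0.207, called higher in V/SVZ (limma adjusted p = 0.00701). Ndufv3 was 0.423 as the mean of its probes and 1.14 in the authors' deposited table, which also gave 0.217 for Itgam. With the replicate block, although nothing states whether the numbers pair the samples, 30 subunits were higher in V/SVZ and 19 in CP. In that fit Uqcrc1, Ndufs3, Cox4i1 and Atp5o lost the call. Sdha, Sdhc, Sdhd, Ndufab1, Ndufa8, Cox6b2, Atp5g1, Atp5g2 and Atp5md kept direction and call in all 20 alternatives run for each. Ndufaf5 lost its call without 7 of the 8 arrays in turn.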
